A study of Mus musculus with 11 samples.

Results

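Messenger RNAs of myelin and mature oligodendrocytes were examined in the cerebral cortex of an amyloid mouse model with and without Abi3. The 9 genes were chosen by name, not by a rule on their values, but with earlier results of these data known. They encode myelin proteins or mark oligodendrocytes that have matured: Mbp, Mobp, Mal, Cnp, Mag, Mog, Cldn11, Opalin and Ermn. Each was matched by symbol to 1 of the 53700 Ensembl gene identifiers in the count tables of the 11 animals, and all 9 were among the 17626 genes that were tested. All 11 mice were females aged 8 months, labelled as C57BL/6, that carried the 5xFAD transgenes, which are expressed from the neuronal Thy1 promoter and lead to amyloid deposits. The 6 Abi3+/+ mice had both copies of Abi3, and the 5 Abi3-/- mice carried an allele in which the Abi3 locus was deleted from the germ line, so that every cell type lacked the gene. Per the study's methods, the mice of both groups were heterozygous for a Trem2 variant that comes with the SJL background of the 5xFAD line. Each library came from 1 animal and was read near the poly(A) end of the transcripts (QuantSeq 3′ mRNA-seq).

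Oligodendrocytes wrap axons in the central nervous system with a stack of membrane that is pressed together into compact myelin, which speeds conduction. Myelin basic protein and its relatives hold the cytoplasmic faces of the membrane together, claudin strands run through the stack as tight junctions, and adhesion proteins face the axon or the outside. Grey matter of the cortex holds some myelin, and the white matter under it holds far more, so the myelin mRNA in a piece of cortex varies with how much white matter is dissected with it. In such bulk tissue, fewer oligodendrocytes and less mRNA per oligodendrocyte cannot be told apart.

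The libraries held 3202310 to 5501958 reads in genes, and the 2 deepest were Abi3+/+ replicates 2 and 5. Raw Abi3 counts were 10 to 38 in Abi3+/+ animals and 0 to 2 in Abi3-/- animals. Reads outside genes numbered 65.9 ± 3.67 (SD, n = 6) per 100 reads in genes in Abi3+/+ and 54.0 ± 4.99 (SD, n = 5) in Abi3-/- libraries (two-sided exact permutation test, p = 0.00866), a library measure that moves with genotype. P-values here measure the spread between these animals.

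The 250 bases before the start of the annotated canonical transcript are shown for the 3 genes with an unadjusted p under 0.05 (Cldn11, Mal and Cnp) and for Mog and Mobp, which hold matches to the motifs searched. They were read from the reference genome GRCm39 and are written 5′ to 3′ on the strand of the gene. Capitals mark matches on either strand to ACAAAG, the core that SOX factors such as Sox10 recognise, or to CTGGNAC, the core of the Myrf motif, both of which belong to regulators of myelin genes. The Mobp stretch ends where an exon of a further Mobp transcript begins.
Cldn11 (chr3:31203650-31203899, + strand): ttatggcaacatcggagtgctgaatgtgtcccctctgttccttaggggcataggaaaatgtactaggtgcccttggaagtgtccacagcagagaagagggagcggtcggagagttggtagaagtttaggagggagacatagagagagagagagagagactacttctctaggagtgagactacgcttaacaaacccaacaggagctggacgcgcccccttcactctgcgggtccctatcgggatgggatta
Mal (chr2:127498616-127498865, - strand): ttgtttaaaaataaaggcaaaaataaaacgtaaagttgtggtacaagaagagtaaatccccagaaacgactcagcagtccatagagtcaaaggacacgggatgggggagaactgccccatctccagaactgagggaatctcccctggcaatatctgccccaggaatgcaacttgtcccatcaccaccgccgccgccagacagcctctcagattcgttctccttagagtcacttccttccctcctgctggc
Cnp (chr11:100465480-100465729, + strand): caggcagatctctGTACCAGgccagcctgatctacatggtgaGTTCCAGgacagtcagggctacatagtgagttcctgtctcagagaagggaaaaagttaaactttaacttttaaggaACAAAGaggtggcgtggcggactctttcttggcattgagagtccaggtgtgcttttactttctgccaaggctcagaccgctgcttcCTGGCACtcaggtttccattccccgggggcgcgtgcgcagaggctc
Mog (chr17:37334351-37334600, - strand): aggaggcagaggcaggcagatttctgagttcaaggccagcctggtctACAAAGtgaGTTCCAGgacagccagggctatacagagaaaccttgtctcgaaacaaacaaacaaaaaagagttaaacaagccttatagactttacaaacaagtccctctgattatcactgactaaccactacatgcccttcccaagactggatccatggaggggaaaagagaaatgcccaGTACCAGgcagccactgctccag
Mobp (chr9:119978493-119978683, + strand): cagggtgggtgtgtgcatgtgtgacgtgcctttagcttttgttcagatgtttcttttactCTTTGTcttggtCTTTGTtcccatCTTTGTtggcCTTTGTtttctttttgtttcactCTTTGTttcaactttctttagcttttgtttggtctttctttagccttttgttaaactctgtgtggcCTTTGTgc

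The SOX core occurred in the windows of 5 of the 9 genes (Mbp, Mobp, Cnp, Mog and Opalin), against 15.9% of 21626 promoters of protein-coding genes. Mobp had 7 matches in its whole window, 6 of them in the stretch shown, a number reached by 1 of all promoters, that of Mobp itself. The Myrf core occurred in 2 of the 9 windows, with 3 matches at Cnp and 2 at Mog, against 16.1% of promoters. One match of each of these 2 genes lies in a run of 16 bases that both windows share, GTGAGTTCCAGGACAG, which 54 promoters (0.25%) hold. The windows were not screened for repeated sequence of the genome, and matches in such sequence were counted like any other. Neither core occurred in the windows of Cldn11, Mal, Mag or Ermn. Exons of further transcripts of the same gene covered all 250 bases of the window at Mag and 170 at Mbp. They covered 59 bases at Mobp and 1 at Opalin. A match is a string of letters, not a site shown to be bound.

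The first question was whether loss of Abi3 changes myelin gene expression in this model. All 9 genes had a log2 fold change above 0 in Abi3-/- against Abi3+/+ cortex, from 0.03 for Mbp to 0.53 for Cldn11, and 1 of the 9, Cldn11, passed the threshold of a DESeq2 Benjamini-Hochberg adjusted p of 0.05 over all genes. Of all genes tested, 0.539% passed (0.34% as higher in Abi3-/-). An unadjusted p under 0.05 was reached by 3 of the 9 genes (Cldn11, Mal and Cnp), all higher, against 4.14% of all genes in that direction. The median log2 fold change was 0.25 over the 9 genes, -0.0033 over all genes tested and 0.02 over the 7074 genes that averaged 60 or more normalized counts. A normalized count is a read count divided by a size factor for the depth of its library. A log2 fold change above 0 was seen in 49.5% of all genes and in 55.5% of those more abundant genes. The groups overlapped for all 9 genes, whereas all Abi3-/- animals lay above all Abi3+/+ animals for 0.539% of genes.

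**Figure D1:**
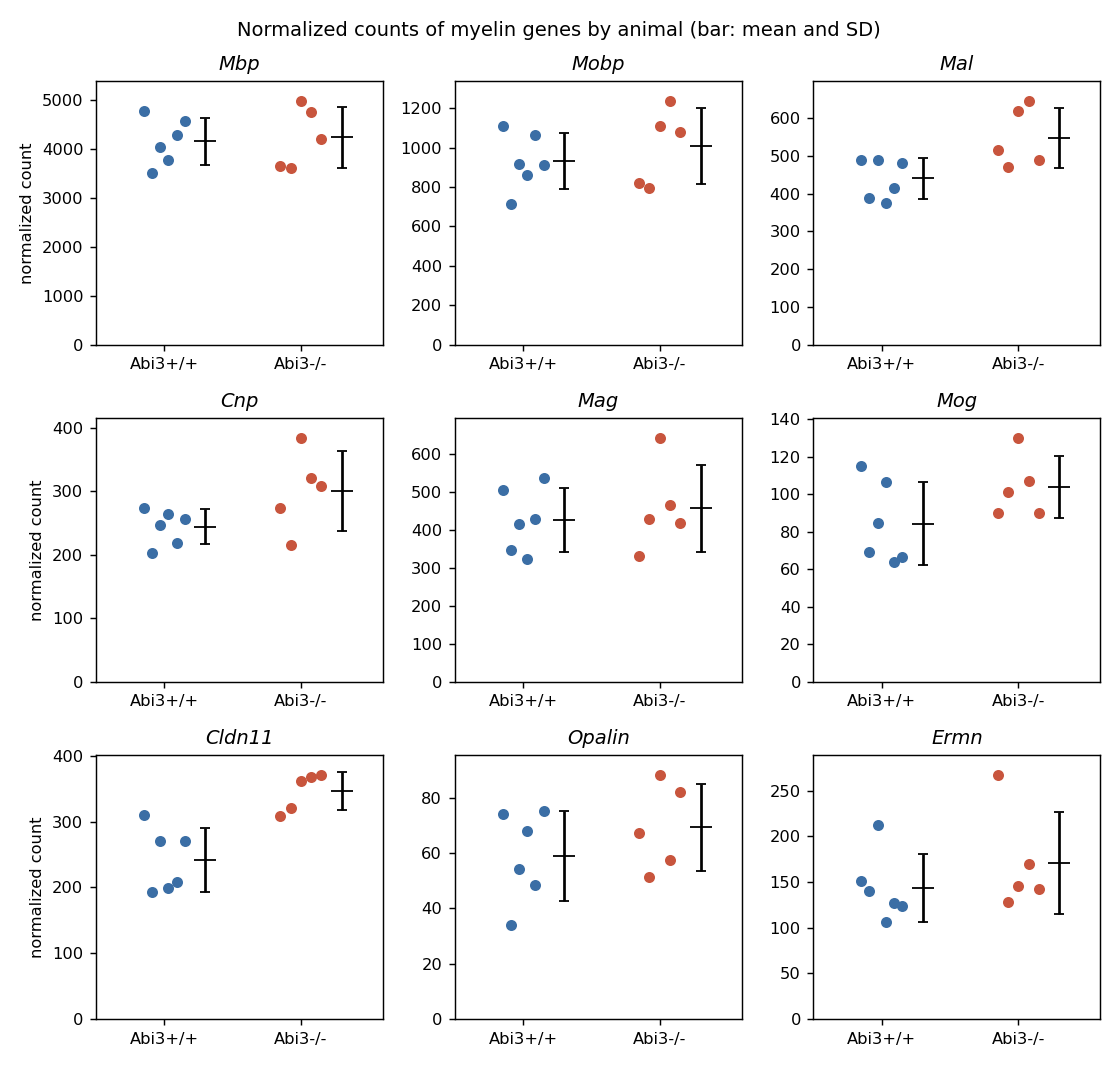
Normalized counts (y axis, starting at 0) of the 9 myelin and oligodendrocyte genes in each of the 6 Abi3+/+ and 5 Abi3-/- animals, replicates from left to right, with the group mean and SD as bars. The groups overlap in every panel, and for Cldn11 4 of 5 Abi3-/- animals lie above all Abi3+/+ animals.

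Among genes of compact myelin, Mbp encodes myelin basic protein, which glues the cytoplasmic faces of the membrane. Mbp (ENSMUSG00000041607, chromosome 18) had 3509, 4174 and 4774 normalized counts as the lowest, median and highest of the 6 Abi3+/+ animals, and 3661, 3621, 4993, 4751 and 4198 in Abi3-/- replicates 1 to 5. Abi3-/- replicates 1 and 2 were among the lowest of all animals and replicates 3 and 4 among the highest, so the Abi3-/- animals covered nearly the whole range. The log2 fold change was 0.03 (SE 0.091, DESeq2 adjusted p = 0.939), with a 95% interval of -0.15 to 0.21.

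Mobp (ENSMUSG00000032517, chromosome 9, 119973770 to 120011273, plus strand) encodes a second basic protein of compact myelin. Its normalized counts were 714, 915 and 1108 (lowest, median, highest) in Abi3+/+ animals and 821, 795, 1109, 1239 and 1078 in Abi3-/- replicates 1 to 5. As for Mbp, Abi3-/- replicates 1 and 2 were low and the remaining 3 were high, inside or just above the Abi3+/+ range. Its log2 fold change was 0.12 (SE 0.119, adjusted p = 0.748).

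Mal (ENSMUSG00000027375, chromosome 2, 127475142 to 127498615, minus strand) encodes a proteolipid that carries cargo to lipid-rich domains of the myelin membrane. Its normalized counts were 376, 449 and 491 in Abi3+/+ animals and 515, 469.7, 618, 647 and 490.5 in Abi3-/- replicates 1 to 5. In 3 of 5 Abi3-/- animals Mal was above all Abi3+/+ animals. Replicate 5 was just under the highest Abi3+/+ animal, and replicate 2 was above 3 of the 6 Abi3+/+ animals. Mal thus had a log2 fold change of 0.32 (SE 0.108, unadjusted p = 0.00339, adjusted p = 0.118).

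Among genes of non-compact myelin and of its surface, Cnp (ENSMUSG00000006782, chromosome 11, 100465730 to 100482936, plus strand) encodes the cyclic nucleotide phosphodiesterase that keeps cytoplasmic channels through myelin open. Its normalized counts were 203, 251 and 274 in Abi3+/+ animals and 274, 215, 384, 321 and 308 in Abi3-/- replicates 1 to 5. Abi3-/- replicates 3, 4 and 5 were above all Abi3+/+ animals, and replicate 2 was below the Abi3+/+ median. The difference on the log2 scale was 0.30 (SE 0.136, unadjusted p = 0.0256, adjusted p = 0.326). Cnp overlaps Dnajc7 on the opposite strand, and the counting used the strand.

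Mag (ENSMUSG00000036634, chromosome 7, 30598464 to 30614474, minus strand), the adhesion protein on the innermost wrap that faces the axon, had 323, 422 and 536 normalized counts in Abi3+/+ animals and 330.3, 427, 642, 465 and 417 in Abi3-/- replicates 1 to 5. Only replicate 3 exceeded the Abi3+/+ range, and the others were spread through it. For Mag the log2 fold change was 0.10 (SE 0.149, adjusted p = 0.847).

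Mog (ENSMUSG00000076439, chromosome 17, 37321521 to 37334350, minus strand), an immunoglobulin-like protein on the outermost surface of myelin, had 63.7, 76.8 and 115 normalized counts in Abi3+/+ animals and 90.2, 101, 130.1, 107 and 89.9 in Abi3-/- replicates 1 to 5. All 5 Abi3-/- animals were above the Abi3+/+ median, but 2 of the Abi3+/+ animals were as high as most of them. The log2 fold change was 0.30 (SE 0.196, adjusted p = 0.549), and the 95% interval of -0.08 to 0.69 includes 0.

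Cldn11 rose in Abi3-/- cortex. It encodes claudin-11, which forms the tight junction strands between the wraps of central myelin (ENSMUSG00000037625, chromosome 3, 31203900 to 31218495, plus strand). Its normalized counts were 193, 239 and 309 in Abi3+/+ animals and 308, 321, 362, 368 and 371 in Abi3-/- replicates 1 to 5. Except for replicate 1, which lay just under the highest Abi3+/+ animal, the Abi3-/- animals were above the whole Abi3+/+ range, and their spread was the smaller one. The mean was 242 ± 48.1 (SD, n = 6) in Abi3+/+ and 346 ± 29.1 (SD, n = 5) in Abi3-/- cortex, 1.44-fold higher by DESeq2 (log2 fold change 0.53, SE 0.130, adjusted p = 0.0106). The gene was the 42nd of all genes by p-value. With edgeR's quasi-likelihood test 1 of the 9 genes, again Cldn11, passed (log2 fold change 0.52, adjusted p = 0.0403), as did 0.21% of all genes, and with limma 0 of 9 passed (Cldn11 0.54, adjusted p = 0.0586), against 0.113%.

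The call for Cldn11 was lost in some settings that changed the libraries or the covariates, and the cause was not tested. Without the 2 deepest libraries, Abi3+/+ replicates 2 and 5, its log2 fold change was 0.40 (SE 0.134, DESeq2 adjusted p = 0.175), and with the log2 library total as a covariate it was 0.33 (SE 0.119, unadjusted p = 0.00589), with no adjusted p because its mean count fell under DESeq2's filter. Without Abi3+/+ replicate 2 alone it was 0.47 (DESeq2 unadjusted p = 0.000335), again with no adjusted p. With reads outside genes as a covariate, which is not a measure of depth, it was 0.61 (DESeq2 unadjusted p = 0.0123, adjusted p = 0.999985).

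The markers of late maturation did not pass the test. Opalin (ENSMUSG00000050121, chromosome 19, 41045254 to 41065553, minus strand), a membrane glycoprotein of oligodendrocytes, had 34.1, 61.3 and 75.1 normalized counts in Abi3+/+ animals and 67.1, 51.5, 88.3, 57.6 and 81.9 in Abi3-/- replicates 1 to 5. The 2 groups were mixed over most of their range, and Abi3+/+ replicate 2 was the lowest animal. The log2 fold change was 0.24 (SE 0.238, unadjusted p = 0.314), and the mean count of Opalin was under the 70.4 below which DESeq2 gave no adjusted p.

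Ermn (ENSMUSG00000026830, chromosome 2, 57934641 to 57942882, minus strand), a cytoskeletal protein of myelinating oligodendrocytes, had 106, 134 and 212 normalized counts in Abi3+/+ animals and 267, 128, 146, 169 and 142 in Abi3-/- replicates 1 to 5. Abi3-/- replicate 1, low for Mbp, Mobp and Mag, was the highest animal for Ermn. The log2 fold change was 0.25 (SE 0.198, adjusted p = 0.651).

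The second question was how far the genes vary with the oligodendrocyte content of each piece of cortex. The spread between animals within a genotype was 0.19 (SD on the log2 scale) for Mbp, 0.19 for Mal, 0.23 for Cldn11 and 0.24 for Cnp, and reached 0.37 for Ermn and 0.39 for Opalin. Read sampling accounted for little of it in Mbp (a counting SD of 0.0223) and for more in Mog (0.151) and Opalin (0.184), which had at least 63 and 51 raw counts in every animal. For each animal the mean log2(normalized count + 1) of the 9 genes was set against the same mean over 27 other genes of mature oligodendrocytes, called the oligodendrocyte level here. The mean over the 9 genes was 8.28 ± 0.194 (SD, n = 6) in Abi3+/+ and 8.52 ± 0.179 (SD, n = 5) in Abi3-/- animals, a difference of 0.24, and the oligodendrocyte level was 6.83 ± 0.130 and 6.99 ± 0.144, a difference of 0.17. For both measures all 5 Abi3-/- animals were above the Abi3+/+ mean.

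Over the 11 animals the 9-gene mean followed the oligodendrocyte level, with Pearson r = 0.924 (permutation test, two-sided, p = 9e-05, adjusted over 8 relations 0.00036) and Spearman rho = 0.864 (permutation p = 0.00098, adjusted 0.00392). Without the 2 animals farthest from the median, Abi3+/+ replicate 2 and Abi3-/- replicate 3, r was 0.797. With both measures centred within genotype r was 0.888 (permutation p = 0.00032), and in the 6 Abi3+/+ animals alone r was 0.813 (exact permutation test, p = 0.05). The Spearman rho in those 6 animals was 0.6 (exact permutation test, p = 0.242).

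The 9-gene mean also fell as the number of reads in genes rose, with r = -0.885 (permutation p = 1e-05, the smallest that 100000 resamples can give, adjusted 8e-05) and rho = -0.90 (permutation p = 0.00045, adjusted 0.0036) against the log2 library total. The relation held without the 2 deepest libraries (r = -0.85), centred within genotype (r = -0.845, permutation p = 0.00117) and in the 6 Abi3+/+ animals alone (r = -0.921, exact permutation test, p = 0.00278). The oligodendrocyte level fell with the library total too (r = -0.717, permutation p = 0.0142, rho = -0.864, permutation p = 0.00116). All 9 genes had a Pearson r below 0 with the library total after centring, with a median of -0.62, which 2.07% of 7780 genes with a mean count of at least 50 reached or passed; the median over those genes was 0.02. The Abi3-/- libraries were the shallower ones, with 3457200 ± 301866 (SD, n = 5) reads in genes against 4213426 ± 958976 (SD, n = 6), a difference within the spread between animals (two-sided exact permutation test, p = 0.13). The part of library depth in the higher Abi3-/- values was not tested beyond these values and the fits with and without it.

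**Figure D2:**
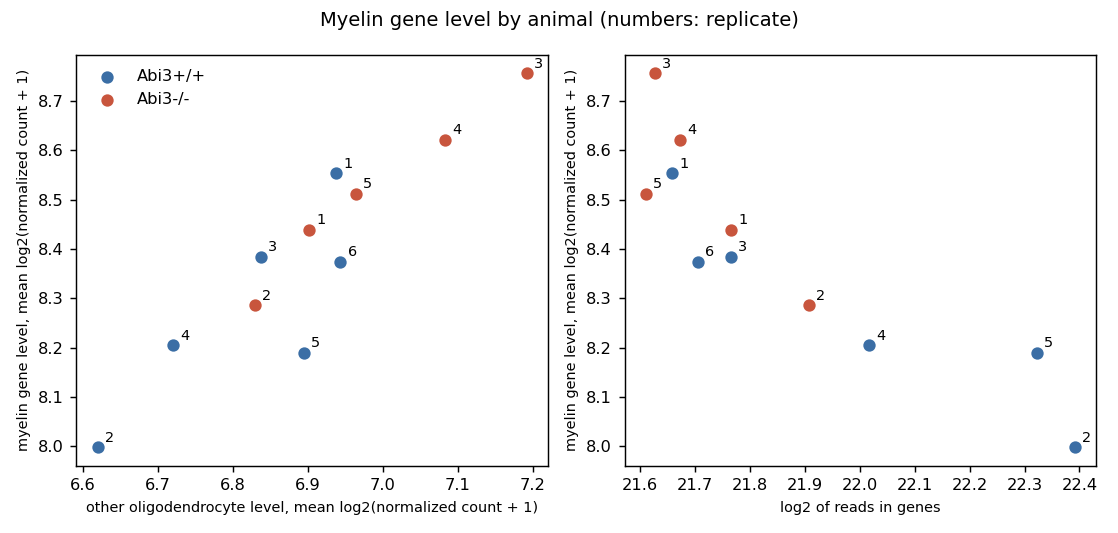
Mean log2(normalized count + 1) of the 9 genes in each animal (y axis) against the mean of 27 other oligodendrocyte genes on the same scale (left) and against the log2 number of reads in genes (right), blue for Abi3+/+ and red for Abi3-/-, with replicate numbers. The 9-gene mean rises with the oligodendrocyte level (r = 0.924) and falls with the library total (r = -0.885), and the 2 deepest libraries are both Abi3+/+.

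No other measure passed the threshold after adjustment. The Pearson r of the 9-gene mean was 0.02 with neuronal genes (adjusted permutation p = 0.95), 0.02 with astrocyte genes (0.95), 0.39 with microglial genes (0.615), 0.03 with genes of oligodendrocyte precursors (0.95), -0.08 with striatal genes (0.95) and -0.34 with reads outside genes (0.615).

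The genes did not follow the oligodendrocyte level equally. After centring within genotype, the level accounted for 94.0% of the variance of Mbp, 73.1% of Mag, 71.1% of Mobp, 69.8% of Mal, 57.9% of Cnp, 47.1% of Cldn11, 40.6% of Opalin and 7.9% of Mog, with a Pearson r of -0.00040 for Ermn. Over all 11 animals Mbp had r = 0.839 and rho = 0.827 with the level (permutation p adjusted over 9 genes 0.00265 and 0.00625, r = 0.72 without the 2 farthest animals). For Mog (r = 0.482, rho = 0.391, adjusted permutation p = 0.152 and 0.266) and Ermn (r = 0.181, rho = 0.336, adjusted permutation p = 0.591 and 0.312) the relation did not pass. Among the 36 pairs of the 9 genes the centred r ranged from -0.23 for Mag with Ermn to 0.89 for Mbp with Mobp, with a median of 0.54, and 31 pairs were above 0. Ermn stood apart, with a median r of -0.098 to the other genes.

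**Figure D3:**
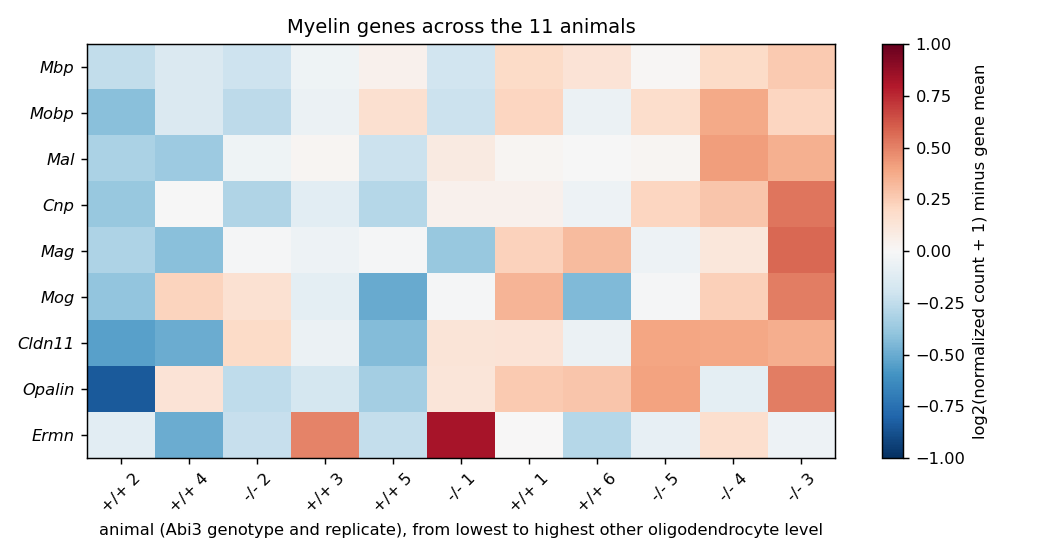
Log2(normalized count + 1) minus the mean of each gene over the 11 animals (colour, red above and blue below the mean), for the 9 genes (rows) and animals (columns) ordered from the lowest to the highest level of other oligodendrocyte genes. Abi3+/+ replicate 2 at the left is low and Abi3-/- replicates 4 and 3 at the right are high for most genes, while Ermn follows its own order.

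By a rule that took the highest centred Pearson r with the 9-gene mean over 11 animals among 7771 genes, the 10 most alike genes were Pgm1 (0.93), B230354K17Rik (0.92), Brcc3 (0.92), Fam107a (0.91), Epb41l3 (0.90), Ivns1abp (0.90), Zfp40 (0.89), Phc2 (0.88), Anln (0.87) and Mast4 (0.86). Anln, which encodes the cytoskeletal protein anillin of myelinating oligodendrocytes, was the only one of them in an oligodendrocyte list. Among the top 100 genes were 5 of the 23 oligodendrocyte genes compared (Anln, Efnb3, Plekhb1, Trf and Septin4). After centring, the r of the 10 genes with the library total ran from -0.91 to -0.57.

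The genotypes were then compared with the oligodendrocyte level as a covariate in the DESeq2 model, so that animals were compared at like oligodendrocyte content. The level was measured in the same libraries and may itself depend on genotype. The median log2 fold change of the 9 genes was then 0.06, and 5 of 9 were above 0, against 48.3% of all genes. Mbp was lower in Abi3-/- animals at a given level, with a log2 fold change of -0.20 (SE 0.0538, adjusted p = 0.0123), the only one of the 9 past the threshold, which 1.23% of all genes passed in this fit. With edgeR in place of DESeq2 none of the 9 passed, and leaving out Abi3+/+ replicate 1, Abi3-/- replicate 1 or Abi3-/- replicate 2 also left 0. For Cldn11 the log2 fold change was 0.34 (SE 0.140, unadjusted p = 0.0152, adjusted p = 0.18), and for the others it was 0.28 (Ermn), 0.18 (Mog), 0.12 (Mal), 0.06 (Cnp), -0.06 (Opalin), -0.15 (Mobp) and -0.23 (Mag), none past the threshold.

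**Figure D4:**
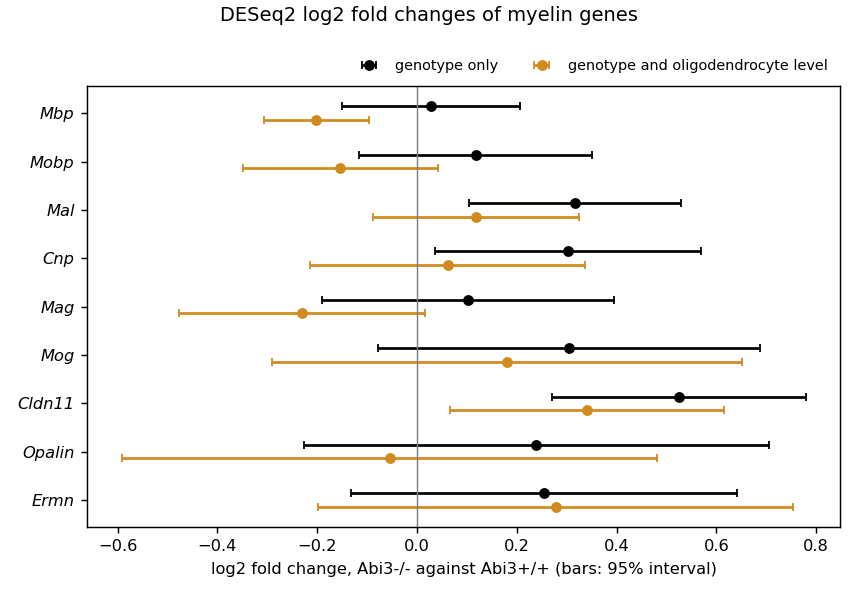
DESeq2 log2 fold changes of the 9 genes, Abi3-/- against Abi3+/+ (x axis, bars 95% intervals), with genotype alone (black) and with the oligodendrocyte level as a covariate (orange). With genotype alone all 9 points lie above 0, and with the level 5 do, Mbp being at -0.20 and Cldn11 at 0.34.

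A ratio within a library does not depend on the size factors. The raw counts of the other 8 genes were also expressed per 100 Mbp counts, a comparison chosen after the values were seen and given with no test. Cldn11 was at 6.48, 5.49, 6.68, 5.28, 4.84 and 5.89 per 100 Mbp counts in Abi3+/+ replicates 1 to 6 and at 8.42, 8.87, 7.24, 7.75 and 8.84 in Abi3-/- replicates 1 to 5. All 5 Abi3-/- animals were above all Abi3+/+ animals. Such a separation occurred in 9 of 7780 genes with a mean count of at least 50 (0.116%), and in none of the other 7 members. The ratio was not free of depth among Abi3+/+ animals: the 3 deepest libraries, replicates 2, 4 and 5, had the 3 lowest values. Abi3+/+ replicates 1, 3 and 6, with 3307854 to 3563505 reads in genes, were at 5.89 to 6.68, under the lowest Abi3-/- value of 7.24. Among Abi3-/- animals the deepest library, replicate 2, had the highest value. For normalized counts of each gene, not for the ratio, the centred Pearson r with the library total was -0.89 for Cldn11 and -0.62 for Mbp. The part of depth in the separation of the genotypes was not tested. The mean of Cldn11 per 100 Mbp counts was 5.78 ± 0.712 (SD, n = 6) in Abi3+/+ and 8.22 ± 0.711 (SD, n = 5) in Abi3-/- animals.

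Mal was at 10.6 ± 0.865 (SD, n = 6) per 100 Mbp counts in Abi3+/+ and 12.9 ± 0.951 (SD, n = 5) in Abi3-/- animals, with 4 of 5 Abi3-/- animals above the Abi3+/+ range. Cnp was at 5.89 ± 0.649 (SD, n = 6) and 7.04 ± 0.708 (SD, n = 5), with 3 of 5 above it. Mobp (22.3 ± 1.82 and 23.7 ± 2.03) and Mag (10.2 ± 1.02 and 10.7 ± 1.59) differed between groups by less than the SD of either (n = 6 and 5). Counts were also divided by the geometric mean of the other 8 members, a mean taken on the log2 scale. Cldn11 was then 0.743 ± 0.0662 (SD, n = 6) in Abi3+/+ and 0.937 ± 0.0923 (SD, n = 5) in Abi3-/- animals. Mbp was 18.4 ± 1.46 (SD, n = 6) and 15.5 ± 0.839 (SD, n = 5). On that measure the Abi3-/- animals lay wholly above the Abi3+/+ animals for Cldn11, as for 0.0643% of genes, and wholly below them for Mbp, as for 0.99%.

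**Figure D5:**
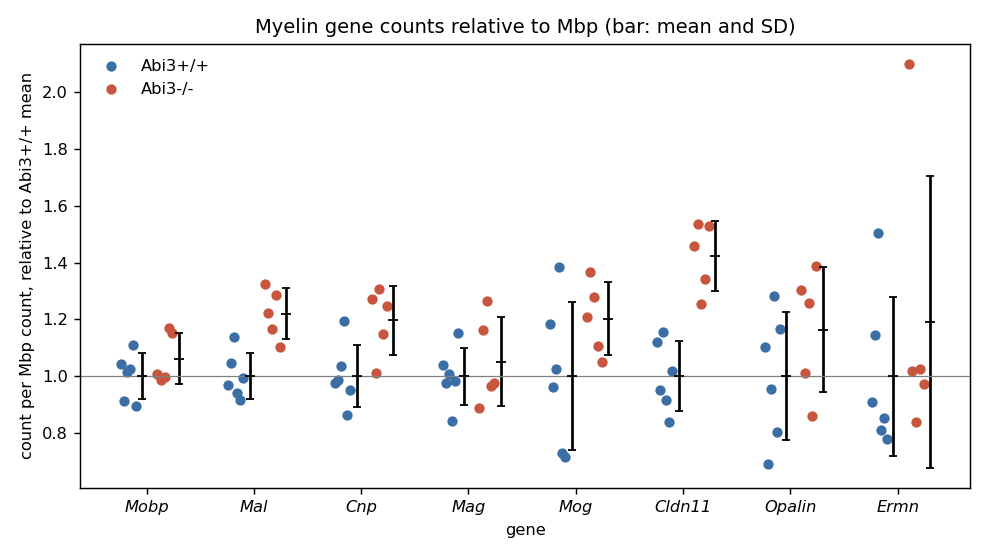
Raw counts per Mbp count in the same library, divided by the Abi3+/+ mean of each gene (y axis), for the other 8 genes in 6 Abi3+/+ (blue) and 5 Abi3-/- (red) animals, with group mean and SD as bars. Cldn11 is the gene for which all 5 Abi3-/- animals lie above all Abi3+/+ animals.

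The rest of the oligodendrocyte lineage was read from lists of known genes. Of 6 enzymes that make or process myelin lipids, 0 passed the threshold in either direction and 0 had an unadjusted p under 0.05, with a median log2 fold change of 0.21, but 4 of them had mean counts too low for an adjusted p. Their smallest p-values were those of Ugt8a, which makes galactosylceramide (log2 fold change 0.36, SE 0.218, adjusted p = 0.521), and of Aspa, which releases acetate from N-acetylaspartate (0.38, SE 0.25, unadjusted p = 0.13). Of 30 tested genes among 31 other genes of mature oligodendrocytes, 23 had a log2 fold change above 0 with a median of 0.17, 6 had an unadjusted p under 0.05, all higher in Abi3-/- animals, and 1 passed the threshold, while 12 had no adjusted p. This was Trf, which encodes the iron carrier transferrin and had 531 ± 44.3 (SD, n = 6) normalized counts in Abi3+/+ and 699 ± 143 (SD, n = 5) in Abi3-/- animals (log2 fold change 0.40, SE 0.116, adjusted p = 0.0477). When each animal was left out in turn, Trf passed in 5 of 11 fits, with adjusted p from 0.00271 to 0.145, and in 4 of 14 other settings. The remaining 5 were Ndrg1 (0.37, adjusted p = 0.133), Cryab (0.31, 0.265), Pllp (0.35, 0.27), Tspan2 (0.37, 0.279) and Qdpr (0.23, 0.295).

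Of 9 transcription factors of the lineage 0 passed, with a median log2 fold change of 0.14, and 5 of them, Myrf and Sox10 included, had no adjusted p. Log2 fold changes were above 0 for 5 of the 9 and below 0 for Tcf7l2 (-0.26), Nkx6-2 (-0.15), Sox8 (-0.12) and Olig1 (-0.07). The mean log2 level of the 7 factors with a mean count of at least 10 differed by -0.01 between Abi3-/- and Abi3+/+ animals. Myrf, the factor that drives myelin genes, averaged 54.8 ± 10.7 (SD, n = 6) in Abi3+/+ and 70.7 ± 15.9 (SD, n = 5) in Abi3-/- animals, as normalized counts (log2 fold change 0.38, SE 0.219, unadjusted p = 0.0859), and Sox10 had 47.1 ± 10.6 and 54.1 ± 20.8 (0.21, SE 0.27). Of 5 genes of newly formed oligodendrocytes, 5 of precursors and 5 of oligodendrocytes in disease, 0 passed in each list, and 3, 2 and 2 of them had no adjusted p. In the last list C4b, a complement component, had a log2 fold change of 0.59 (SE 0.183, adjusted p = 0.0748) and Il33, an alarmin, 0.48 (SE 0.172, adjusted p = 0.155), and both are also made by other cell types of the cortex. Pmp22, which peripheral myelin also uses, had a log2 fold change of -0.10 (adjusted p = 0.881).

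Genes of other cell types that a piece of cortex can hold passed the threshold in none of the lists. These comprised 8 genes of neurons, 5 of cortical layers, 6 of astrocytes, 6 of microglia, 4 of endothelial cells, 7 of striatal neurons, 4 of choroid plexus and 6 tested genes of meningeal fibroblasts. No adjusted p was given to 3 of the choroid plexus genes, 4 of the meningeal genes, 2 of the striatal genes and 1 each of the cortical layer, astrocyte, microglial and endothelial genes, which could therefore not pass. Beside the 0.24 for the 9 myelin genes, the mean log2 level differed between Abi3-/- and Abi3+/+ animals by 0.06 for neuronal genes, -0.05 for astrocyte genes, 0.16 for microglial genes, -0.29 for striatal genes, 0.56 for choroid plexus genes and -0.16 for meningeal genes. Summed normalized counts were 2481 to 3675 in Abi3+/+ and 2367 to 3523 in Abi3-/- animals for the 7 striatal genes, and 42.7 to 3543 and 91.9 to 2323 for the 4 choroid plexus genes, so the pieces of tissue differed in what else they held. All 7 striatal genes, which mark tissue under the cortex, had a log2 fold change below 0, and the part of dissection in the values of the 9 genes was not tested.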

How the data were processed

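Cortical RNA of 6 Abi3+/+ and 5 Abi3-/- mice was sequenced as single-end 3′ reads. Per the study's methods the authors trimmed the reads, aligned them with STAR (version 2.7.3a) to GRCm39 and counted them per Ensembl gene and strand with htseq-count (HTSeq version 0.9.1). The authors deposited raw counts for each gene, with reads outside genes tallied apart. PCR copies were not stated to be collapsed, so counting errors are lower limits. Names and positions came from a more recent annotation of the same build (GENCODE vM39), which matched 52610 of 53700 identifiers.

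DESeq2 (version 1.42.0, R version 4.3.3) was fitted to genes with a total count of at least 10, with genotype as the only term, and gave results for the 17626 genes that averaged 1.5 or more normalized counts. The threshold was a Benjamini-Hochberg adjusted p of 0.05, and DESeq2's filter on low means was aimed at the same 0.05. Levels used list genes with a mean count of at least 10. Relations across animals were tested by 100000 permutations. Alternatives used edgeR (version 4.0.16), limma (version 3.58.1) with weighted voom, sva (version 3.50.0), TMM factors, other filters, covariates, a replicate block and each animal left out. On simulated data with 200 of 17626 genes changed by 1 on the log2 scale, all with a mean count of at least 100, DESeq2 recovered 98.5%, and 7.51% of its calls were false.

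The genes, lists and tests were chosen with earlier results of these data known. Named are the 9 members, Abi3, list genes past the threshold or with the smallest p, and the 10 genes most like the 9-gene mean. Sox10, Tcf7l2, Nkx6-2, Sox8, Olig1 and the genes of mature oligodendrocytes beside Trf were named after their values were seen. The meningeal list, the library total and the choroid plexus level as covariates, the fit without the 2 deepest libraries and the ratios to Mbp and to the other members were also chosen after seeing the data. Some genes of the lists are not reported here.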

Additional observations from a re-analysis of the deposited data

Results flagged for a closer look

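Of 46 groups of values examined with Dixon's test, 2 held an animal far from the others, about the 2.3 that chance gives at a rate of 1 in 20. Neither was one of the 9 myelin genes. Abi3-/- replicate 2 had 2.02 normalized counts of Abi3, where the other 4 Abi3-/- animals had 0. Abi3+/+ replicate 4 had an astrocyte level of 8.91 on the log2 scale, where the nearest of the other Abi3+/+ animals had 9.25.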

How the results depend on the processing

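Against 95 genes past the threshold, edgeR called 37, limma 20, DESeq2 with its filter on low means switched off 57, and DESeq2 with reads outside genes as a covariate 3, and leaving out 1 animal gave 46 to 120. Against 1 of the 9 myelin genes, 0 passed with limma (Cldn11 adjusted p = 0.0586), with reads outside genes or the library total as a covariate and without the 2 deepest libraries, and 2 passed with the choroid plexus level as a covariate, Mal being the added one. Leaving out 1 animal gave 0 to 1, the 0 being without Abi3+/+ replicate 2, where Cldn11 had no adjusted p. For the other oligodendrocyte genes the 1 call became 0 with edgeR, limma, TMM factors, the stricter filter, the filter switched off, the replicate block, reads outside genes or the library total as covariates and without the 2 deepest libraries, and was 0 to 1 with 1 animal left out. The median log2 fold change of the 9 genes, 0.25, was 0.46 with reads outside genes and 0.0613 with the oligodendrocyte level as a covariate, 0.127 with the library total as a covariate (5 of 9 above 0), 0.15 without the 2 deepest libraries (8 of 9 above 0), and 0.20 to 0.33 with 1 animal left out. With the oligodendrocyte level in the model the 1 call, Mbp, became 0 with edgeR and was 0 to 1 with 1 animal left out.

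Directions turned for 6 genes. With the oligodendrocyte level as a covariate Mbp was at -0.20, Mobp at -0.15, Mag at -0.23 and Opalin at -0.0551. With the library total as a covariate Mbp was at -0.0909, Mobp at -0.0053, Mag at -0.0625 and Opalin at -0.0738. Mbp was at -0.0171 without the 2 deepest libraries and ran from -0.0369 to 0.0801 with 1 animal left out, Mag ran from -0.0517 to 0.20, and Ermn was at -0.0253 with reads outside genes as a covariate. Cnp was at -0.0134 with the oligodendrocyte level as a covariate and Abi3+/+ replicate 5 left out. The relation of the 9-gene mean to the oligodendrocyte level passed in all 11 fits without 1 animal (r from 0.882 to 0.967) and in 6 alternatives (0.672 to 0.922).

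The replicate numbers 1 to 5 are shared by both groups but name different animals. Deviations of animals with the same number correlated at 0.0184 on average and 0 of 5 pairs exceeded 0.1, and 2 Abi3+/+ animals were most like the Abi3-/- animal of their own number. With the replicate block 33 genes passed, among them Cldn11 (adjusted p = 0.0204), so the numbers were not taken as pairs. The depth of 3202310 to 5501958 reads limits the rarer genes: Mog and Opalin often had no adjusted p, and the cause of the changes between settings was not tested.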
